A study of Mus musculus with 10 samples.

Results

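D cyclins, their kinase partners and the inhibitors that hold those kinases back were followed in primary mediastinal T cell lymphomas of 10 mice. The set holds 10 genes, chosen by name: Ccnd1, Ccnd2, Ccnd3, Cdk4, Cdk6, Cdkn1a, Cdkn1b, Cdkn2a, Cdkn2b and Cdkn2c. A probe set of the array that carries 1 gene symbol was found for 9 of the 10, among 19937 genes with such a probe set, and all 9 lay above the level filter used for testing, as did 12670 genes in all. The filter was a mean log2 intensity of at least 6.35, the 40th percentile of all probe sets. For Cdkn1a, the p53-induced inhibitor p21, the probe set is shared with another symbol, so no level is given.

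Lymphomas arose spontaneously in NPM-ALK transgenic mice on a C57BL/6 background. NPM-ALK is a fusion kinase found in human anaplastic large cell lymphoma, and every mouse carried it, so it cannot be set against its absence. The WASP-deficient group had 5 NPM-ALK mice that also lacked WASP, an actin regulator of blood cells encoded by Was on the X chromosome (females or males were used, per the design text). The WASP-intact group had 5 NPM-ALK mice labelled WT. Tumours developed at 4 to 5 months of age, and total RNA of each went on 1 array. No label used here states which promoter drives the transgene or the sex of each animal. Whole tumours were profiled, so a lower value can mean fewer cells of a type or less RNA per cell, and these cannot be told apart.

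Array medians of the linear intensity ran from 116.7 to 122.7. Was stood at 7.92 to 8.20 (log2 intensity) on the 5 WASP-deficient arrays and at 9.11 to 9.34 on the 5 WASP-intact arrays, which matches every genotype label. Xist, transcribed in female cells, was at 4.50 to 5.58 on the WASP-deficient arrays, at 4.40 on WASP-intact array 3 and at 11.52 to 11.90 on the other 4 WASP-intact arrays, so the genotypes also differ in Xist on 4 of 5 WASP-intact arrays. Differences between genotypes therefore cannot be told apart from differences that go with Xist, except through WASP-intact array 3. Of 11 T cell markers, 8 had a usable probe set and all 8 lay above the filter, while 4 of 5 B cell markers lay under it. The arrays also split by Cd2, an adhesion receptor of T cells. WASP-deficient array 1 and WASP-intact arrays 4 and 5 had Cd2 at 11.52, 11.18 and 11.30 and are called Cd2-high, since they are at a log2 level of 9 or more. The other 7 arrays, 4 WASP-deficient and 3 WASP-intact, lay between 6.10 and 6.90 and are called Cd2-low. The split comes from the measured values and not from any label, so the sets are described without a test. Of the 8 T cell markers, 1 lay wholly higher and 2 wholly lower on Cd2-high than on Cd2-low arrays. Over all genes 30.5% did not overlap between these sets. Medians were higher in Cd2-high arrays for 5 of the 8 and lower for 3. Cd3d, wholly lower, was at 5.26 to 6.47 on Cd2-high and 8.96 to 10.08 on Cd2-low arrays. Cd3g, also wholly lower, was at 6.29 to 10.24 on Cd2-high and 11.45 to 12.23 on Cd2-low arrays. Cd3e, another chain of the same receptor complex, was at 12.29 to 12.59 on Cd2-high and 12.06 to 12.38 on Cd2-low arrays.

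D cyclins are induced by mitogens and carry growth signals to the cell cycle. They bind Cdk4 or Cdk6, and the active kinases phosphorylate the retinoblastoma protein Rb, which releases E2F transcription factors and lets cells enter S phase. INK4 inhibitors (encoded by Cdkn2a, Cdkn2b and Cdkn2c) bind Cdk4 and Cdk6 directly, whereas p27, encoded by Cdkn1b, acts mainly on cyclin E with Cdk2. Ccnd3 and Cdk6 are the forms that proliferating thymocytes rely on most, and loss of the Cdkn2a locus is frequent in T cell leukaemia.

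Promoter windows from RefSeq (GRCm38.p6), 250 bases before to 50 bases after a transcription start, were at hand for 8 of the 10 genes, in 12 windows. Ccnd1 and Ccnd2 had none. The window of Cdk4 is shown because its level hardly varied between tumours and because it holds 4 copies of CACGTG, the E-box letters that Myc binds, printed in capitals. Of 32851 windows, 7.15% held at least 1 CACGTG and 8 windows, 0.0244%, held at least 4.
Cdk4, chr10:127063285-127063584, plus strand: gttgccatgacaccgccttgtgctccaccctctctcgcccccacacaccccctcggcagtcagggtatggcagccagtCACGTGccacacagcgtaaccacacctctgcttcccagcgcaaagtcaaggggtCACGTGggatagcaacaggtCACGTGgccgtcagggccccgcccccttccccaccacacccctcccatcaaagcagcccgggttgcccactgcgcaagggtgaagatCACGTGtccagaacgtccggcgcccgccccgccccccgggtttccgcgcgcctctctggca

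The windows of Cdkn2a, Cdkn2b and Ccnd3 are shown because Cdkn2a and Ccnd3 stood apart between the Cd2 sets in opposite directions and Cdkn2b is the gene next to Cdkn2a. Capitals mark TTTCCCGC or TTTGGCGC, forms of the E2F site, and GGGCGG, the GC box, on either strand. At least 1 of the E2F letters was found in 1.56% of all windows and at least 1 GC box in 35.7%. The upstream start of Cdkn2a, which gives p19Arf, had 1 E2F match and 3 GC boxes, and the downstream start, which gives p16Ink4a, had 0 and 1. Cdkn2b had 0 and 1, and each window of Ccnd3 had 0 and 2. The Cdk4 window also holds 3 GC boxes, left in lower case. No match overlapped another motif, and a match describes letters only.
Cdkn2a, p19Arf start, chr4:89294570-89294869, minus strand: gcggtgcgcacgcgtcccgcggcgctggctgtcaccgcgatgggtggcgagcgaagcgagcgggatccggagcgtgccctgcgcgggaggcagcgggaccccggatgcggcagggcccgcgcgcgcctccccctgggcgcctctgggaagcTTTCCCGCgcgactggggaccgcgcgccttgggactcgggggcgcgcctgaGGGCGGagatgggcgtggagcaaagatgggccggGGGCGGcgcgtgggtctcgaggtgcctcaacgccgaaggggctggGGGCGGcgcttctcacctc
Cdkn2a, p16Ink4a start, chr4:89282143-89282442, minus strand: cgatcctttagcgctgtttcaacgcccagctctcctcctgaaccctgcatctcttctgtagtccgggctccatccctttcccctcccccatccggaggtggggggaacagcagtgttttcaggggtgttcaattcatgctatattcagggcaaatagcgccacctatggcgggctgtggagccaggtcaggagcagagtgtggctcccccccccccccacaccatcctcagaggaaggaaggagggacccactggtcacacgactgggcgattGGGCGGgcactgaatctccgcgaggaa
Cdkn2b, chr4:89310983-89311282, minus strand: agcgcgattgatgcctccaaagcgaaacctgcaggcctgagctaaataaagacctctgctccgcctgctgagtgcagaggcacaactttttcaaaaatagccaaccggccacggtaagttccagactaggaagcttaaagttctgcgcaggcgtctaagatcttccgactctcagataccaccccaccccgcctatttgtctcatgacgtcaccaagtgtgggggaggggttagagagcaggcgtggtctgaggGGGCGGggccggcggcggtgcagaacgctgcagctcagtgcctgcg
Ccnd3, upstream start, chr17:47504801-47505100, plus strand: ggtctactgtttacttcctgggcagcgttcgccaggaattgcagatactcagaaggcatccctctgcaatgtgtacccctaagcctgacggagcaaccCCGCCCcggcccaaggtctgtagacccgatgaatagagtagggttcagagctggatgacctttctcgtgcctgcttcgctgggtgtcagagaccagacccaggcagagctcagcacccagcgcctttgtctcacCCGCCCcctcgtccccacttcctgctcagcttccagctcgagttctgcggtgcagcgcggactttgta
Ccnd3, downstream start, chr17:47593217-47593516, plus strand: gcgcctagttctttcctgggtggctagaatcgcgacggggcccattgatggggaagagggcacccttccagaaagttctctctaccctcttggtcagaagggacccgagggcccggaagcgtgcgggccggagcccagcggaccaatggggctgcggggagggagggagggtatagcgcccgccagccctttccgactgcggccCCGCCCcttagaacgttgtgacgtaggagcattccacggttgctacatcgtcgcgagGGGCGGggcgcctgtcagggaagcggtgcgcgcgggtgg

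Ccnd2, the cyclin D2 gene, varied most of the 9 genes, and its highest levels were in WASP-deficient tumours. On WASP-deficient arrays 1 to 5 its log2 level was 8.44, 8.75, 9.15, 9.98 and 11.51, and on WASP-intact arrays 1 to 5 it was 8.91, 8.64, 8.82, 7.95 and 7.86. The genotypes overlapped, with WASP-deficient arrays 3, 4 and 5 above every WASP-intact array and WASP-deficient arrays 1 and 2 within the range of the WASP-intact ones. Its range over the 10 arrays was 3.65, and 1.01% of all genes had a range at least as wide. The mean was 9.57 ± 1.23 in WASP-deficient and 8.44 ± 0.50 in WASP-intact tumours (SD, n = 5 each), a log2 difference of 1.13 (SE 0.53, 95% confidence interval -0.04 to 2.30, limma adjusted p = 0.999). Without WASP-deficient array 5 the difference was 0.64 (SE 0.34, limma adjusted p = 0.9998). With Xist as a covariate it was 0.82 (SE 0.88). A difference as large as 1.13 in size was seen for 0.300% of genes, and that of Ccnd2 did not pass the test here.

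Ccnd2 was also low on all 3 Cd2-high arrays, at 8.44 on WASP-deficient array 1 and at 7.95 and 7.86 on WASP-intact arrays 4 and 5, against 8.64 to 11.51 on the 7 Cd2-low arrays. The Cd2-high median was 7.95 and the Cd2-low median 8.91, a difference of -0.96. On the 7 Cd2-low arrays alone, Ccnd2 was at 8.75, 9.15, 9.98 and 11.51 in the 4 WASP-deficient tumours and at 8.91, 8.64 and 8.82 in the 3 WASP-intact ones, which overlap. The log2 difference there was 1.06 (SE 0.56, 95% interval -0.21 to 2.33, limma adjusted p = 0.999). With the Cd2 set as a covariate over all 10 arrays it was 0.91 (SE 0.44, limma adjusted p = 0.9999).

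The genes closest to Ccnd2 in pattern were taken by the mean absolute difference of log2 levels, each centred on its median over the 10 arrays. They were Popdc3, a membrane protein gene of the popeye family, at 0.256, Enah, an actin regulator of the Ena/VASP family, at 0.278, and Elovl2, a fatty acid elongase, at 0.284. On WASP-deficient arrays 4 and 5, Enah stood at 9.72 and 9.82, against 6.63 to 7.33 on the other 8 arrays. Elovl2 stood at 8.25 and 8.58 on the same arrays and at 5.46 to 6.35 on the others. Popdc3 was at 9.25 and 9.65 there, against 6.88 to 8.36. WASP-deficient arrays 4 and 5 were the highest for Ccnd2 too. The 3 genes were chosen for closeness to Ccnd2, so the shared peak follows from the choice. Elovl2 lay near or under the filter level of 6.35 on all other arrays, so it passed the filter through these arrays.

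**Figure D1:**
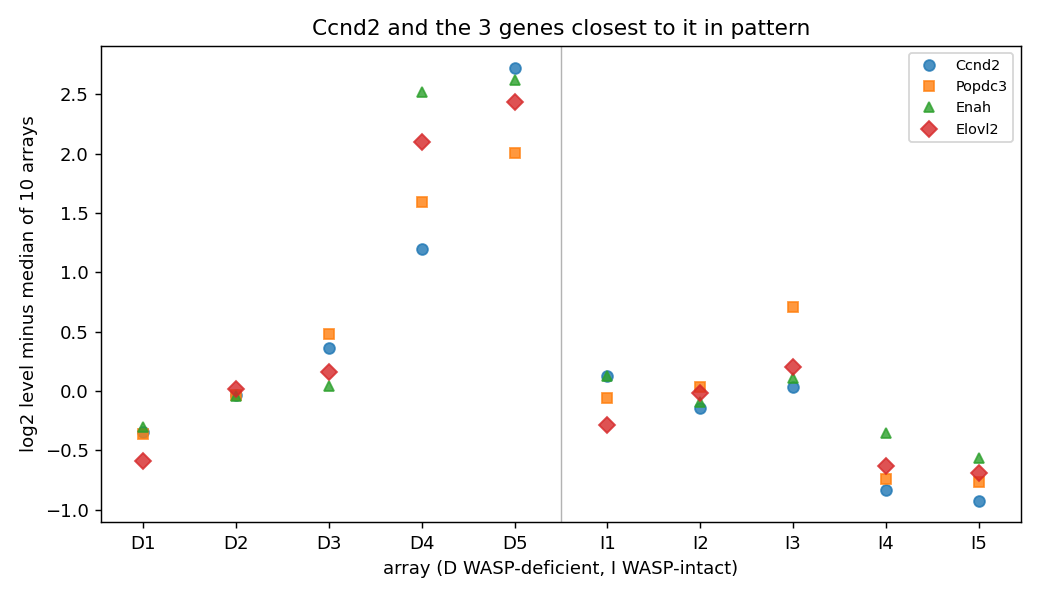
Log2 level minus the median of 10 arrays (y axis) for Ccnd2, Popdc3, Enah and Elovl2 on each array (x axis, D WASP-deficient, I WASP-intact, 1 point per array and gene). All 4 genes are highest on WASP-deficient arrays 4 and 5 and low on the Cd2-high arrays, WASP-deficient array 1 and WASP-intact arrays 4 and 5. Popdc3, Enah and Elovl2 were chosen for closeness to Ccnd2, so the shared pattern follows from the choice.

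Ccnd3, the cyclin D3 gene, was lower on the Cd2-high arrays and near level between genotypes. Its log2 level was 11.95, 12.25, 12.18, 12.32 and 12.22 on WASP-deficient arrays 1 to 5 and 12.42, 12.42, 12.33, 11.66 and 11.59 on WASP-intact arrays 1 to 5. The 3 low values are those of the Cd2-high arrays, at 11.59 to 11.95, and they lie below all 7 Cd2-low arrays, at 12.18 to 12.42. The medians were 11.66 in Cd2-high and 12.32 in Cd2-low arrays, a difference of -0.66 or 0.633 of the Cd2-low level. Between genotypes the means were 12.18 ± 0.14 in WASP-deficient and 12.08 ± 0.42 in WASP-intact tumours (SD, n = 5 each), a log2 difference of 0.10 (SE 0.18, 95% interval -0.31 to 0.51, limma adjusted p = 0.999). Without the 3 Cd2-high arrays its sign turned, to -0.15 (SE 0.09, limma adjusted p = 0.999). The 4 WASP-deficient Cd2-low arrays, at 12.18 to 12.32, lay just below the 3 WASP-intact ones, at 12.33 to 12.42, and the gap between these ranges was narrower than either range.

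Ccnd1, the cyclin D1 gene, is little used by normal T cells and is active in many stromal and epithelial cells. Its log2 level was 9.0, 8.05, 10.64, 8.54 and 9.47 on WASP-deficient arrays 1 to 5, against 9.37, 9.21, 8.96, 9.55 and 9.44 on WASP-intact arrays 1 to 5. WASP-deficient tumours thus held both the highest and the lowest values, and the WASP-intact values lay within their range. The SD was 0.99 over WASP-deficient and 0.23 over WASP-intact arrays (n = 5 each, no test of the spread), and the difference was -0.17 (SE 0.41, 95% interval -1.07 to 0.73, limma adjusted p = 0.999). Cd2-high arrays at 9.0 to 9.55 lay within the Cd2-low range of 8.05 to 10.64.

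Markers of non-T cells moved between arrays as well, and their part in Ccnd1 or any other gene was not tested. The summed linear intensity of 7 fibroblast markers was 2001 to 3916 on WASP-deficient and 2026 to 6612 on WASP-intact arrays, and 3916 to 6612 on Cd2-high against 2001 to 3317 on Cd2-low arrays. For 7 epithelial markers the sums were 1887 to 3225 on WASP-deficient and 953.4 to 2139 on WASP-intact arrays. WASP-deficient array 3, with the highest Ccnd1, had an epithelial sum of 3088, and WASP-deficient array 2, with the lowest Ccnd1, had the highest sum, 3225. For 8 macrophage markers they were 5556 to 9606 on WASP-deficient and 5971 to 8348 on WASP-intact arrays. Muscle markers summed to 5696 on WASP-intact array 4 and to 636.0 to 1025 on the other 9 arrays.

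**Figure D2:**
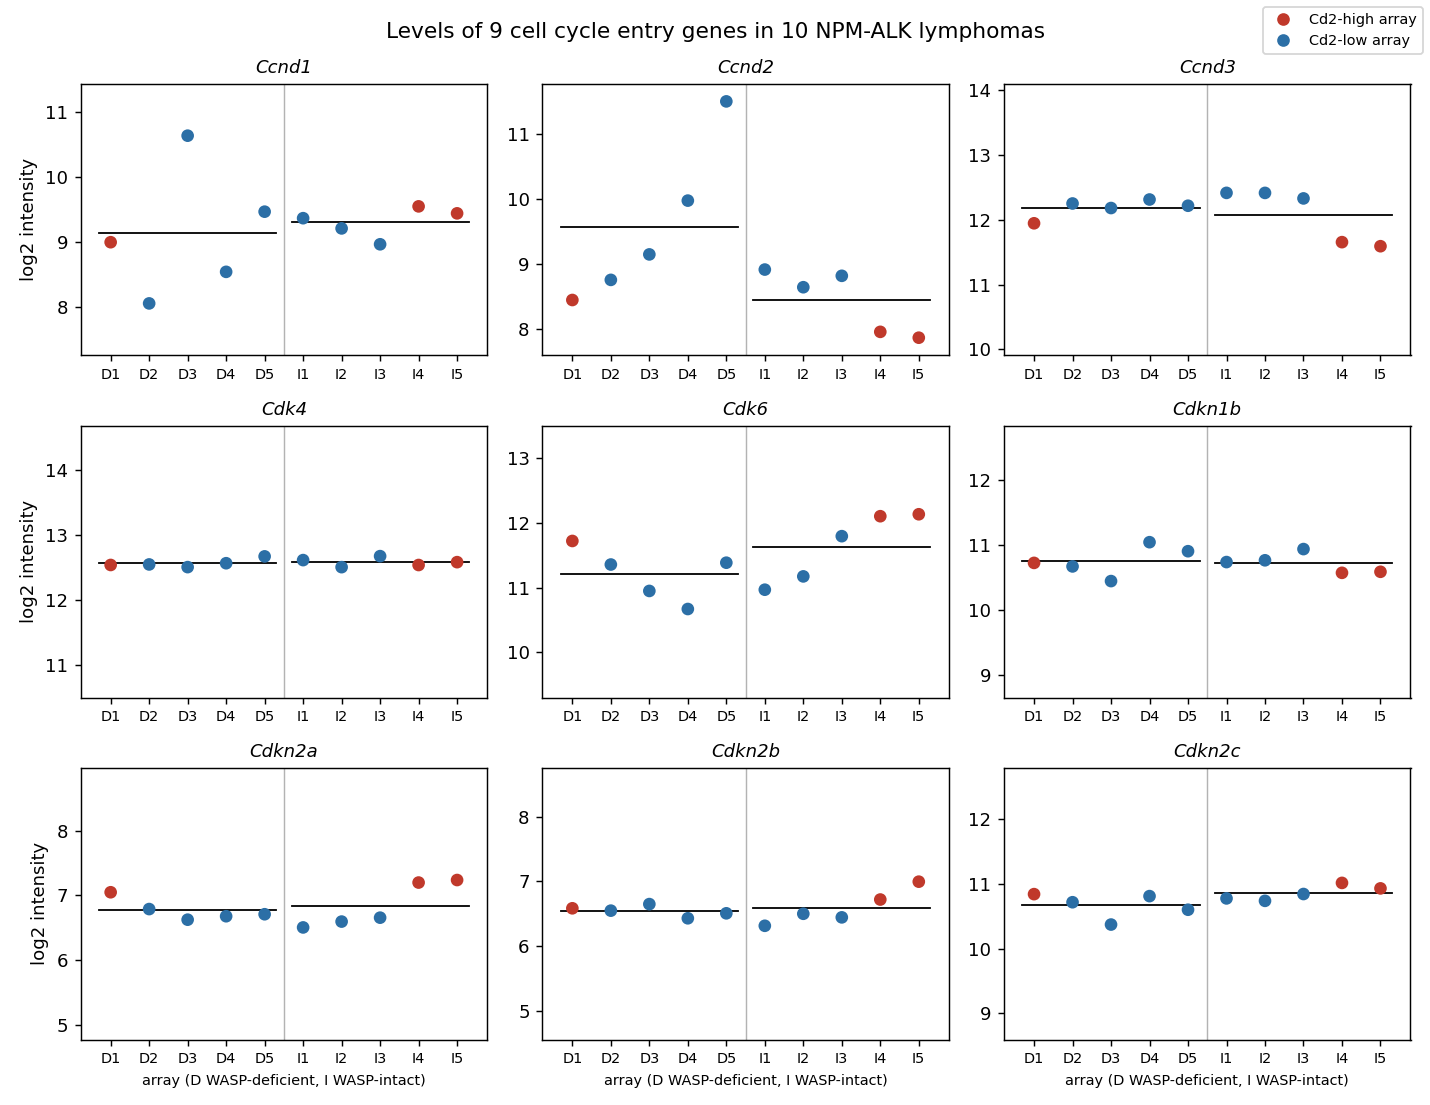
Log2 intensity (y axis, the same span in every panel) of 9 genes on each of 10 arrays (x axis, D WASP-deficient, I WASP-intact, red Cd2-high, blue Cd2-low), with a line at each genotype mean of 5 arrays. Ccnd2 and Ccnd1 spread most among WASP-deficient arrays, Cdk4 stays within 12.50 to 12.67, and the red points are low for Ccnd3 and high for Cdk6 and Cdkn2a.

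Cdk4, the kinase partner whose promoter window is printed above, had nearly the same level in every tumour. On WASP-deficient arrays 1 to 5 it was at 12.54, 12.55, 12.50, 12.56 and 12.67, and on WASP-intact arrays 1 to 5 at 12.61, 12.50, 12.67, 12.54 and 12.58. Its range of 0.17 was among the narrowest on the array, since 99.6% of genes had a range at least as wide. The genotype difference was -0.02 (SE 0.07, 95% interval -0.16 to 0.13, limma adjusted p = 0.999), and the interval spans less than that of any other of the 9 genes. Myc, the factor that binds E-boxes, ranged from 11.17 to 11.86 in WASP-deficient and from 11.41 to 11.80 in WASP-intact tumours.

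Cdk6 varied far more and stood highest in Cd2-high tumours. It was at 11.72, 11.36, 10.95, 10.67 and 11.38 on WASP-deficient arrays 1 to 5 and at 10.97, 11.17, 11.80, 12.10 and 12.13 on WASP-intact arrays 1 to 5. The Cd2-high arrays, at 11.72, 12.10 and 12.13, overlapped the Cd2-low ones, at 10.67 to 11.80, through WASP-intact array 3 alone. The medians were 12.10 in Cd2-high and 11.17 in Cd2-low arrays, a difference of 0.93 or 1.91 times on the linear scale. Between genotypes the means were 11.22 ± 0.41 in WASP-deficient and 11.63 ± 0.54 in WASP-intact tumours (SD, n = 5 each), a difference of -0.42 (SE 0.27, 95% interval -1.02 to 0.19, limma adjusted p = 0.999). With the Cd2 set as a covariate it was -0.27 (SE 0.18, limma adjusted p = 0.9999), and with arrays weighted by their quality it was near 0, at -0.011 (SE 0.25).

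Among the inhibitors, Cdkn2a was higher on all 3 Cd2-high arrays. It was at 7.05, 6.79, 6.62, 6.68 and 6.71 on WASP-deficient arrays 1 to 5, against 6.50, 6.59, 6.65, 7.20 and 7.23 on WASP-intact arrays 1 to 5. Cd2-high arrays lay at 7.05 to 7.23 and Cd2-low arrays at 6.50 to 6.79, with medians of 7.20 and 6.65, so the level was 1.46 times as high on the linear scale. The probe set lists the accessions of both RefSeq transcripts of the gene, so p16Ink4a and p19Arf cannot be told apart. All values stood close above the filter at 6.35. The genotype difference was -0.07 (SE 0.16, 95% interval -0.43 to 0.29, limma adjusted p = 0.999).

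Cdkn2b, which encodes p15Ink4b, went the same way by less and overlapped between the sets. It was at 6.58, 6.55, 6.65, 6.43 and 6.51 on WASP-deficient arrays 1 to 5 and at 6.31, 6.50, 6.44, 6.72 and 6.99 on WASP-intact arrays 1 to 5. The Cd2-high range of 6.58 to 6.99 met the Cd2-low range of 6.31 to 6.65, with medians 0.22 apart (0.15 to 0.36 without single arrays). Its values stood close to the filter at 6.35, and that of WASP-intact array 1 lay under it. Between genotypes it differed by -0.05 (SE 0.12, 95% interval -0.33 to 0.22, limma adjusted p = 0.999).

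Mtap, which encodes an enzyme of methionine salvage and is the next protein-coding gene on the other side of Cdkn2a, was at 9.79 to 9.84 on Cd2-high and at 8.80 to 9.36 on Cd2-low arrays. Its medians were 9.83 in Cd2-high and 9.22 in Cd2-low arrays, a difference of 0.62. Of 17 protein-coding genes from 8 before to 8 after Cdkn2a, 7 were past the filter. Beyond Cdkn2b, Tusc1 differed by 0.03, Caap1 by 0.21 without overlap and Plaa by 0.25 with overlap, and Ifna5, on the side of Mtap, by 0.04. The filter is a percentile of all probe sets and not a detection limit, so a level above it does not show that a gene is present or transcribed, and DNA copy number was not measured.

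**Figure D3:**
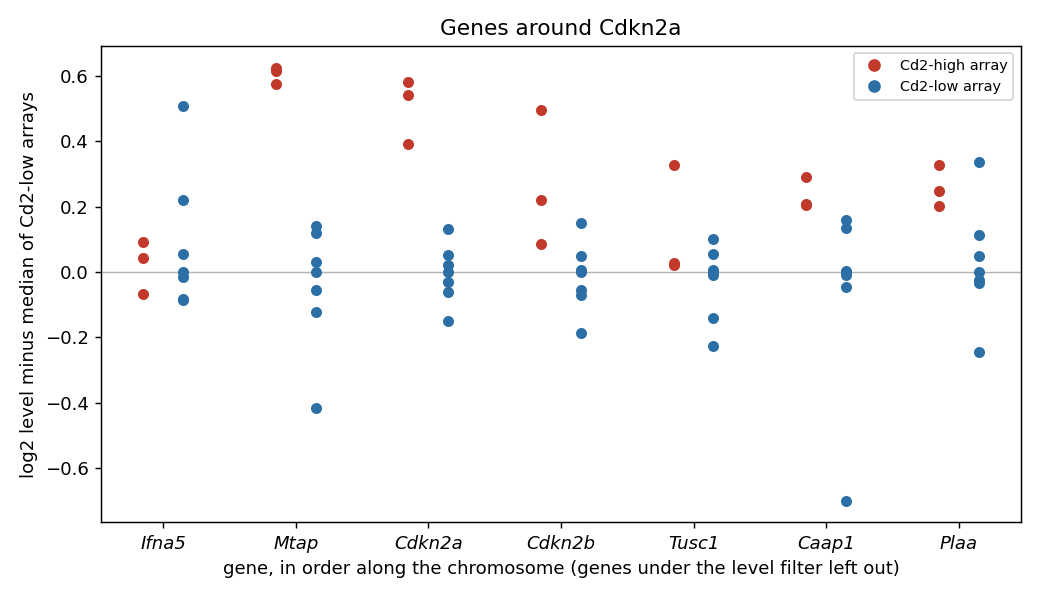
Log2 level minus the median of the Cd2-low arrays (y axis) for the 7 measured genes around Cdkn2a on chromosome 4 in their order (x axis), 1 point per array, red Cd2-high and blue Cd2-low. Red lies above every blue point for Mtap, Cdkn2a and Caap1 and overlaps blue for Cdkn2b and the others.

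Cdkn2c, which encodes p18Ink4c, was at 10.84, 10.72, 10.37, 10.81 and 10.60 on WASP-deficient arrays 1 to 5 and at 10.78, 10.74, 10.84, 11.02 and 10.93 on WASP-intact arrays 1 to 5. The lower values were mostly WASP-deficient, and the groups overlapped, with means of 10.67 ± 0.19 in WASP-deficient and 10.86 ± 0.11 in WASP-intact tumours (SD, n = 5 each). The difference was -0.19 (SE 0.10, 95% interval -0.42 to 0.04, limma adjusted p = 0.999). It was -0.12 (SE 0.08) without WASP-deficient array 3 and -0.098 (SE 0.08) with array weights. Cd2-high arrays, at 10.84 to 11.02, reached just into the Cd2-low range of 10.37 to 10.84.

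Cdkn1b, which encodes p27Kip1, followed neither split. It was at 10.73, 10.67, 10.45, 11.05 and 10.91 on WASP-deficient arrays 1 to 5 and at 10.74, 10.77, 10.94, 10.57 and 10.59 on WASP-intact arrays 1 to 5. The difference was 0.04 (SE 0.12, 95% interval -0.23 to 0.31, limma adjusted p = 0.999). A second probe set of the gene had its lowest value, 7.52, and its highest, 8.37, on WASP-deficient arrays 3 and 4, the same arrays as the first. The Cd2-high range of 10.57 to 10.73 lay within the Cd2-low range of 10.45 to 11.05.

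Between genotypes, 0 of 9 genes passed the test over all 12670 genes (limma, adjusted p under 0.05), where 0.00789% of all genes passed, that is Was alone. At an unadjusted p under 0.05 there were also 0 of the 9, against 366 of the 12670 genes. Values were higher in WASP-deficient tumours for 3 and lower for 6, with a median difference of -0.05, against a median of -0.004 over all genes. The ranges of the genotypes did not overlap for 0 of the 9, and for 0.568% of all genes. The median absolute difference was 0.10 for the 9 and 0.09 for all genes. A difference that misses the threshold with 5 arrays a group is not shown to be absent, and for Ccnd2, Ccnd1 and Cdk6 the intervals reach past 1 in size on the log2 scale.

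**Figure D4:**
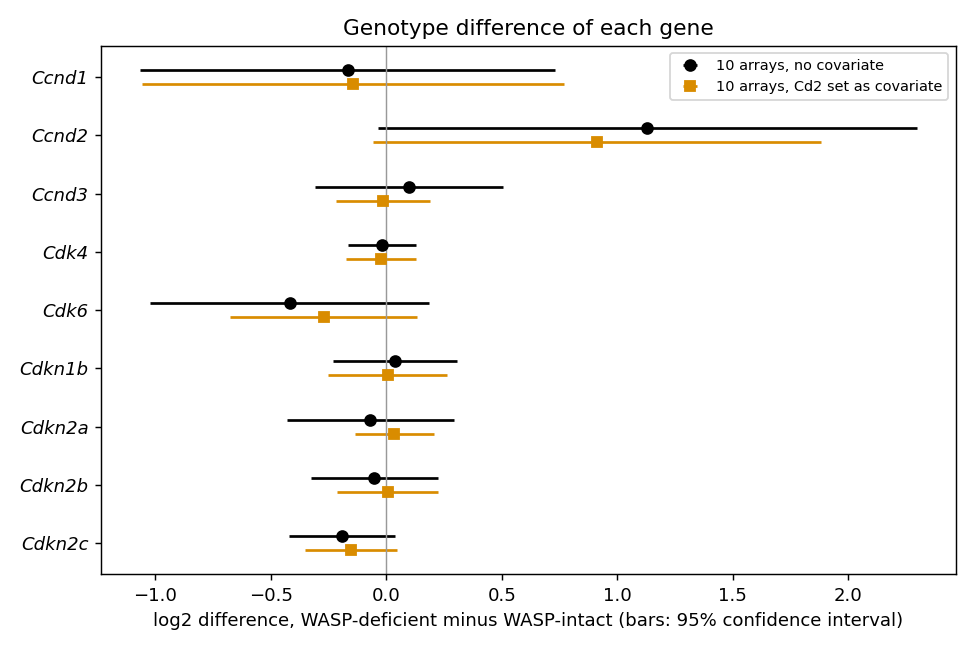
Log2 difference, WASP-deficient minus WASP-intact (x axis), for 9 genes (y axis) with 95% confidence intervals from limma, in black over 10 arrays and in orange with the Cd2 set as a covariate. Every interval includes 0, Ccnd2 lies farthest from 0 at 1.13 and 0.91, and the interval of Cdk4 is narrow.

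Between the Cd2 sets, 3 of 9 genes had ranges that did not overlap. Cdkn2a was higher in Cd2-high arrays, and Ccnd2 and Ccnd3 were lower. Over all genes 30.5% did not overlap, 14.4% higher and 16.1% lower, so the share of the 9, 33.3%, is near the background over the 10 arrays. The median absolute difference was 0.23 for the 9 and 0.20 for all genes. As large a difference as that of Ccnd2 was seen for 8.07% of genes, of Cdk6 for 8.57%, of Ccnd3 for 14.3% and of Cdkn2a for 18.9%. The count depended on single arrays, although leaving an array out can only narrow a range and so cannot lower the count. Without WASP-deficient array 1 it was 6 of 9, 66.7% beside 38.6% of all genes, with Cdk6, Cdkn2b and Cdkn2c added. Without WASP-intact array 3 it was 5 of 9, 55.6% beside 32.2% of all genes, with Cdk6 and Cdkn2c added. With so few genes and no test between the sets, nothing particular to the 9 is read from these shares.

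**Figure D5:**
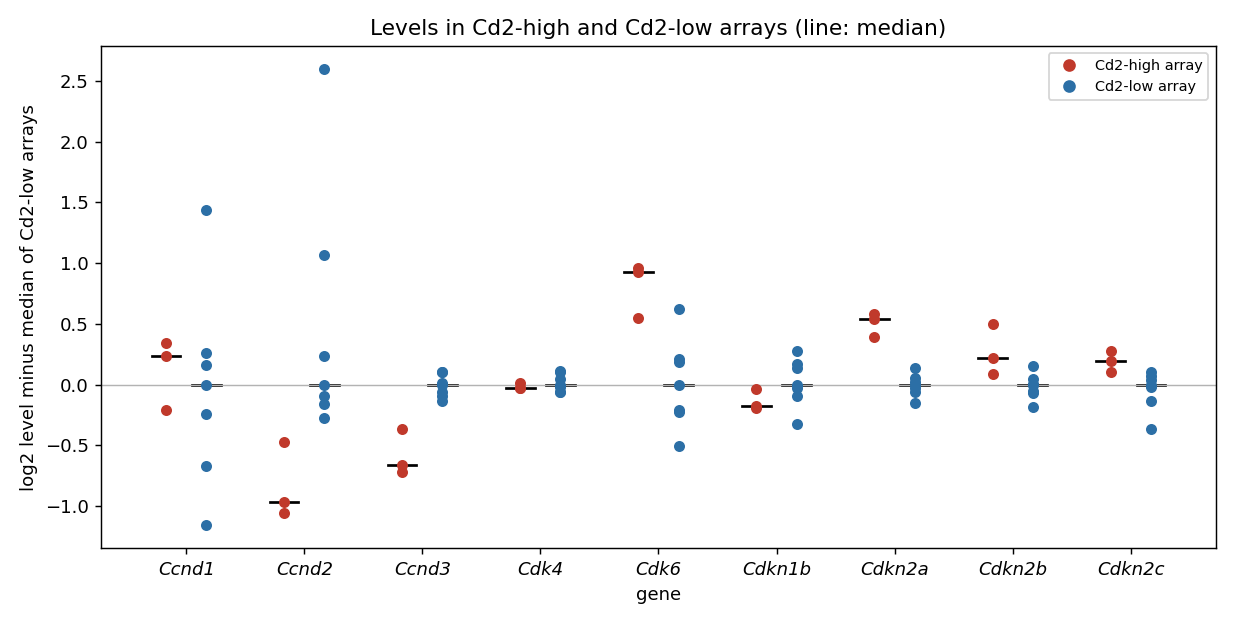
Log2 level minus the median of the Cd2-low arrays (y axis) for 9 genes (x axis), 1 point per array, 3 Cd2-high in red on the left and 7 Cd2-low in blue on the right, with a line at each median. Red lies wholly below blue for Ccnd2 and Ccnd3 and wholly above for Cdkn2a, and Cdk6 overlaps through 1 blue point.

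Genes that act beside these were read from 7 lists, with 67 of 73 members tested. By genotype 0 of the 67 passed in either direction, beside 0.00789% of all genes. Values in WASP-deficient tumours were higher for 27 and lower for 40, beside 6195 higher and 6475 lower over all genes, and this split was not tested. Between the Cd2 sets 10 lay wholly higher and 9 wholly lower in Cd2-high arrays, 28.4% of the 67 beside 30.5% of all genes.

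Of 13 Rb and E2F genes, 2 were wholly higher and 2 wholly lower in Cd2-high arrays. Rb1, which encodes the target of Cdk4 and Cdk6, was at 9.75 to 10.07 on Cd2-high and 10.09 to 10.40 on Cd2-low arrays. The repressor gene E2f7 was at 8.18 to 8.89 on Cd2-high and 7.36 to 7.83 on Cd2-low arrays. E2f5, another repressor, was at 7.96 to 8.19 on Cd2-high and 7.22 to 7.86 on Cd2-low arrays. The other gene without overlap, the activator E2f1, had a median 0.41 lower in Cd2-high arrays. Of 10 cyclin E, A and B genes with Cdk2, Cdk1 and their phosphatases and kinase, 1 was wholly higher, Cdc25a, which removes inhibitory phosphates from Cdk2, with medians of 10.27 in Cd2-high and 9.90 in Cd2-low arrays.

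Of the 3 other inhibitor genes, Cdkn2d, the INK4 gene of p19Ink4d, was at 8.55 to 8.79 on Cd2-high and 8.02 to 8.48 on Cd2-low arrays. Cdkn1c, which encodes p57, was at 6.67 to 7.15 on Cd2-high and 7.15 to 9.24 on Cd2-low arrays, with ranges that just fail to meet. Its highest value, 9.24, came from WASP-deficient array 4. Of 4 genes for the Cdk-activating kinase and a Cdk chaperone, Ccnh and Mnat1, which encode subunits of that kinase, were wholly higher with median differences of 0.50 and 0.10, and Cdc37, the chaperone that loads Cdk4 onto Hsp90, was lower by a difference of -0.13.

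Of 19 regulators of D cyclins and inhibitors, 3 were wholly higher and 4 wholly lower in Cd2-high arrays. Gfi1, a transcriptional repressor of lymphoid progenitors, had medians of 8.94 in Cd2-high and 9.75 in Cd2-low arrays. Cbx7, which encodes a Polycomb protein, had medians of 8.51 in Cd2-high and 9.18 in Cd2-low arrays. The other Polycomb genes of the list overlapped and had higher medians in Cd2-high arrays: Bmi1 had 9.02 in Cd2-high and 8.61 in Cd2-low arrays, and Ezh2 had 11.48 in Cd2-high and 11.37 in Cd2-low arrays. Stat5a, which acts on Ccnd2 and Ccnd3 downstream of cytokine receptors, had medians of 9.30 in Cd2-high and 9.86 in Cd2-low arrays. Among 16 S and M phase genes 0 were wholly higher and 1 was wholly lower, the replication helicase gene Mcm2, with medians of 10.52 in Cd2-high and 11.02 in Cd2-low arrays. Mki67, the proliferation marker, was at 11.86 to 11.96 on Cd2-high arrays, within the Cd2-low range of 11.41 to 11.99.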

How the data were processed

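RNA of 10 primary lymphomas was hybridised to 1 array each. Per the submitters' processing notes, the authors ran RMA, which gave 1 intensity per probe set. Software version and genome build: not given in the sources used here. Deposited intensities run from 3.31 to 15588, a linear scale, although log2 values had been assumed, so log2 was taken first. RMA usually includes quantile normalization, which hides array-wide differences in RNA amount.

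Gene names came from GEO's platform annotation. Among 34760 probe sets, 21640 carried 1 symbol, 1321 carried several, and 11799 are unnamed. For 21553 the gene ID matched RefSeq genes of GRCm38.p6, with 0 symbols changed. The probe set with the highest mean stood for each gene. Genotypes were compared with limma 3.58.1 in R 4.3.3 (lmFit, eBayes), with Benjamini-Hochberg adjustment over 12670 genes and a threshold of 0.05. The fit was tested on simulated data. The number of arrays, 5 per genotype, limits the precision. Replicates are separate mice per the labels.

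The genes, lists and tests were chosen with earlier results of these data known. Named genes are the 10 listed, Was, Cd2, Xist, up to 3 of each list by size among those without overlap between the Cd2 sets, and the 3 nearest to Ccnd2; E2f1, Myc, Mki67, Bmi1, Ezh2, Ifna5, Tusc1, Caap1 and Plaa were named after their values were seen. Lists were Rb and E2F, cyclins E and A with Cdk2 and Cdk1, other inhibitors, Cdk-activating kinase and chaperones, regulators, genes beside Cdkn2a, S and M phase, and markers of T cells, B cells, macrophages, fibroblasts, endothelium, epithelium, adipocytes and muscle. Of their 129 symbols 122 had a usable probe set. Alternatives changed the filter, offset, centring, test, weights, covariates, probe set rule and arrays used. Python 3.11.15 and matplotlib 3.10.9 made the figures.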

Additional observations from a re-analysis of the deposited data

How the results depend on the processing

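Under all 21 alternatives, 10 of which leave out 1 array, 0 of the 9 genes passed for genotype (7 were testable with the filter at the 60th percentile). The lowest limma adjusted p was 0.659, shared by Ccnd2, Cdk6 and Cdkn2c without WASP-deficient array 1. At an unadjusted limma p under 0.05 there was 1 gene without WASP-deficient array 1 (Ccnd2), WASP-deficient array 2 (Ccnd2) or WASP-intact array 1 (Cdk6). All genes under that threshold were counted only in the reported fit, 366 of 12670, so nothing is read from these. Over all genes 1 passed in the reported fit, 0 with the Xist covariate, 0 with the replicate number as a block, 2 without the Cd2-high arrays, and 1 to 4 without single arrays (2 without WASP-deficient array 1 and 4 without WASP-intact array 3). No pairing of the mice by replicate number was seen. Deviations of same-numbered arrays correlated at -0.71, 0.37, 0.29, -0.41 and -0.37, and 0 of 5 numbers had each array best with its own. These deviations also carry the Cd2 split, so the check cannot exclude a pairing. The block left Ccnd2 at 1.13 (SE 0.61).

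Signs of small genotype differences turned, none past the threshold, and the cause was not tested. With array weights Ccnd3 was at -0.12, Cdk4 at 0.0040, Cdkn2a at 0.14 and Cdkn2b at 0.069. With the Xist covariate Ccnd1 was at 0.29, Ccnd3 at -0.14, Cdkn1b at -0.19, Cdkn2a at 0.090 and Cdkn2b at 0.11. Without the Cd2-high arrays Ccnd3 was at -0.15, Cdkn1b at -0.048, Cdkn2a at 0.11 and Cdkn2b at 0.11. With the Cd2 set as a covariate Ccnd3 was at -0.015, Cdkn2a at 0.035 and Cdkn2b at 0.0056. With the mean of probe sets Cdkn1b was at -0.0062. Without single arrays Ccnd1 ran from -0.54 to 0.10, Ccnd3 from -0.022 to 0.18, Cdk4 from -0.044 to 0.0058, Cdkn1b from -0.034 to 0.12, Cdkn2a from -0.15 to 0.031 and Cdkn2b from -0.12 to 0.049. Ccnd2 stayed positive, from 0.64 to 1.41, and with the Xist covariate it was 0.82 with a wider SE of 0.88. Cdk6 ran from -0.59 to -0.28 and Cdkn2c from -0.24 to -0.12, but array weights brought them to -0.011 and -0.098.

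Between the Cd2 sets 3 genes lay apart with median-centred arrays. The count was also 3 with log2(value + 16) and with the mean of probe sets. The offset keeps the order of the arrays for each probe set, and of the 9 genes only Cdkn1b has more than 1 probe set. Neither setting could therefore change the outcome for the other genes. Cd2 limits of 8 and 10 give the same sets, and a filter cannot change a gene's range, so these alternatives say nothing about the 9 genes. The 60th percentile filter would remove Cdkn2a and Cdkn2b, leaving 2 genes apart. The count was 3 to 6 without single arrays (6 without WASP-deficient array 1, 5 without WASP-intact array 3). Leaving out an array can only narrow a range, so the count could not fall, and its holding at 3 or more says nothing about the 3 genes. The Ccnd3 difference was -0.51 without WASP-intact array 5. Over all genes the reported count was 3859 of 12670, 30.5%. It was 2971 of 9005 with the filter at the 60th percentile and 4334 of 19937 with no filter, so the larger count is the smaller share. With other scales, Cd2 limits or the mean of probe sets it was 3858 to 3866. Without single arrays it was 3920 to 4889 of 12670, 30.9% to 38.6%, and it too could not fall.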

Other observations

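Markers not described above also differed between arrays. Krt18, an epithelial keratin gene, was at 7.07 to 8.54 on Cd2-high and at 9.48 to 10.18 on Cd2-low arrays. It was the epithelial marker of 7 without overlap: medians were higher in Cd2-high arrays for 2 and lower for 5, the median difference was -0.37, and the summed intensities, 953.4 to 2062 on Cd2-high and 1412 to 3225 on Cd2-low arrays, overlapped. Adgre1, a macrophage surface receptor gene, was at 8.41 to 8.67 on Cd2-high and 7.11 to 8.28 on Cd2-low arrays. It was likewise 1 of 8 macrophage markers, of which 5 had higher and 3 lower medians in Cd2-high arrays, and their sums, 7047 to 8143 on Cd2-high arrays, lay within the 5556 to 9606 of Cd2-low arrays. For 6 endothelial markers the summed linear intensity was 2061 to 2246 on Cd2-high and 1517 to 2569 on Cd2-low arrays. For 5 adipocyte markers the sums were 818.0 to 1092 on WASP-deficient and 1114 to 1437 on WASP-intact arrays, with no overlap. No other marker sum was without overlap between genotypes, and the sums were not tested. Fabp4, the adipocyte marker with the highest level, overlapped, with 9.483 on WASP-deficient array 2 and 9.479 on WASP-intact array 5. Among fibroblast markers Dcn, Col1a2 and Pdgfra lay wholly higher on Cd2-high arrays, by median differences of 1.39, 1.23 and 1.06. The T cell kinase gene Zap70 did so by 0.27 and the muscle actin gene Acta1 by 0.16. Acta1 was at 7.17 to 11.59 on Cd2-high arrays, with 11.59 on WASP-intact array 4, and at 6.92 to 7.15 on Cd2-low arrays. Of 44 markers tested, 6 lay wholly higher and 3 wholly lower in Cd2-high arrays, 20.5% beside 30.5% of all genes. Summed T cell markers were 17782 to 20883 on WASP-deficient and 17023 to 21928 on WASP-intact arrays, and B cell markers 304.6 to 520.8 on WASP-deficient and 286.7 to 468.6 on WASP-intact arrays. Of the 44 markers tested 0 passed for genotype (limma, adjusted p under 0.05), beside 0.00789% of all genes. Of 18 groups of 5 values, the 9 genes in each genotype, 0 held a value that stood apart by Dixon's criterion. Ccnd2 at 11.51 on WASP-deficient array 5 had a gap of 0.50 of the range, against a limit of 0.71. With 5 values the criterion can miss a value that stands apart, so it does not show that no single array weighs on a difference.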
